A study of Mus musculus with 4 samples.

Results

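The ATF4 amino acid stress response was followed across 4 clones of J558, a BALB/c (H-2Ld) mouse plasmacytoma line, as a list of 36 named genes. The list was selected on pathway membership with earlier results from the signals of these same arrays known, so its counts, medians and p-values are descriptions of the members in both contrasts below. A gene was represented by its brightest probe set, the one with the highest mean log2(signal + 16) over all arrays. All 36 members were measured, of 18193 genes with a named probe set, and 34 were bright enough to be tested, of 10474 tested genes. The clones compared were 2 AID-silenced clones, made with a silencing vector against activation-induced cytidine deaminase (AID), and 2 control clones that received the same vector without a target. All 4 clones also carry a neomycin resistance vector and grew out under G418, and each is 1 clone on 1 Affymetrix Mouse 430 2.0 array. The labels put an AID-silenced and a control clone together as pair 1 and another such couple as pair 2. Members were compared in AID-silenced against control clones and in pair 2 against pair 1. Nothing in the labels says how the pairs differ, so the p-values measure only the spread between these clones, in which culture and technical variation are not separated.

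In this pathway, the kinases PERK (Eif2ak3), which senses stress in the endoplasmic reticulum, and GCN2 (Eif2ak4), which senses uncharged tRNA, phosphorylate the translation initiation factor eIF2 on its alpha subunit. General protein synthesis then falls while translation of the transcription factor ATF4 rises, so that much of ATF4 control lies outside its mRNA level. ATF4, paired with C/EBP proteins, drives genes for amino acid synthesis, transport and tRNA charging, and under lasting stress also CHOP (Ddit3) and its targets. Plasma cells, which secrete large amounts of antibody, are known for strong endoplasmic reticulum activity.

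ATF4 with a C/EBP partner binds a composite element whose core, TGATGNAA, was searched on both strands in the 250 bases before each gene start, using promoters from RefSeq on GRCm38.p6. Of the 30 members in that table, 9 held a match, against 3.91% of all 27025 genes and 3.45% of the 32851 promoters. Because the members were chosen as ATF4 pathway genes, a higher share among them was built into the list. The 9 members were Aars, Asns, Atf3, Chac1, Gars, Nupr1, Pck2, Slc7a11 and Vldlr. The endoplasmic reticulum stress element, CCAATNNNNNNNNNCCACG, was found in 0 of the 30 members and in 0.13% of genes. A match describes these letters only and is not a measured site. Matches are printed in capitals below (a match on the other strand is printed as it reads on the gene strand). The kinases and feedback genes held none. The windows of 5 members are shown, each from a different role described below in which a match was found. They lie at chr6:7693210-7693272 on the minus strand for Asns, chr2:119351009-119351096 on the plus strand for Chac1, chr7:126625533-126625620 on the minus strand for Nupr1, chr3:50443614-50443719 on the minus strand for Slc7a11 and chr8:111033690-111033777 on the plus strand for Aars. The nearest match stood 16 bases before the start in Asns, 186 in Chac1, 103 in Nupr1, 40 in Slc7a11 and 105 in Aars, and Slc7a11 held 2 matches.
Asns: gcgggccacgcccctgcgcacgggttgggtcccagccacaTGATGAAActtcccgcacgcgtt
Chac1: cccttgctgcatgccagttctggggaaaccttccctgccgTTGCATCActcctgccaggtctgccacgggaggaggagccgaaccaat
Nupr1: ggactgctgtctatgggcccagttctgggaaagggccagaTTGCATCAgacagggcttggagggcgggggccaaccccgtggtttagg
Slc7a11: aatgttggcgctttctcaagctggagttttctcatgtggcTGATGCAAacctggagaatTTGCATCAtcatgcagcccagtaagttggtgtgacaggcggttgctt
Aars: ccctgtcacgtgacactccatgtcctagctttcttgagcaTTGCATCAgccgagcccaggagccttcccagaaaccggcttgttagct

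The arrays share a scale, with a trimmed mean signal of 500 and median signals between 52.7 and 54.9. All 8 plasma cell markers were bright enough to be tested, against 1 of 5 measured mature B cell markers, 1 of 5 T cell markers, 1 of 5 macrophage and granulocyte markers and 2 of 6 fibroblast and epithelial markers. Summed plasma cell marker signals were 170803 to 173093 in pair 2 and 133725 to 145705 in pair 1. The brightest markers, such as Igha, weigh most in this sum. Of the 8 markers, 4 were higher in pair 2 in both groups and 4 differed in direction between the groups. Sums in pair 2 and pair 1 were 220.7 to 466.1 and 253.1 to 272.4 for B cells, 145.3 to 203.3 and 80 to 172.2 for T cells, and 349.2 to 462.2 and 312.3 to 369 for macrophages and granulocytes. The epithelial and fibroblast sums, nearly all from Epcam, were 1261.7 to 2640.2 in pair 2 and 2565.3 to 4368.2 in pair 1. The 3′ to 5′ ratio of the beta-actin control probe sets was 1.04 and 1.12 in the AID-silenced and control clones of pair 2 and 1.27 in both clones of pair 1. For Gapdh it lay between 0.776 and 0.807 on all arrays. The part of these values in the results below was not tested.

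Between the pairs, CHOP and several genes around it were on average about 3 to 4 times lower in pair 2 than in pair 1, and both pair 2 clones lay below both pair 1 clones. Differences were smaller for Atf4 itself and for the enzymes of serine, asparagine and folate metabolism. Chac1, also a CHOP target, did not keep a sign, at −0.37 in the AID-silenced and 0.45 in the control clones. The members at least 2-fold lower in pair 2 in both the AID-silenced and the control clones were Ddit3, Nupr1, Trib3, Gtpbp2 and Stc2. These were 5 of 34 tested members (14.7%), against 1.58% of all tested genes, and 0 members were at least 2-fold higher, against 0.267%. No member passed limma's threshold of an adjusted p of 0.05, and of all 22518 tested probe sets 0 passed, a share of 0%, although 3038 had an unadjusted p under 0.05. With the silencing group as a block, 4 probe sets passed, 3 higher (0.0133%) and 1 lower (0.00444%), and 59 passed without the AID-silenced clone of pair 2, in both cases with 0 members among them.

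Ddit3, which encodes the stress transcription factor CHOP, had signals of 523.9 in the AID-silenced and 761.3 in the control clone of pair 2, against 1745.5 and 2614.1 in the AID-silenced and control clones of pair 1. Both pair 2 clones lay below both pair 1 clones, and the order within each pair was the same. In bulk RNA, fewer cells of a kind and less RNA per cell cannot be told apart. The level was 3.32-fold lower in pair 2, a log2 difference of −1.73 ± 0.28 (SE, n = 2 per pair, limma adjusted p = 0.245). With the silencing group as a block the SE was 0.19 and the limma adjusted p 0.0799. A dimmer second probe set for Ddit3 was lower, at −0.64 in the AID-silenced and −0.73 in the control clones.

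Trib3, a pseudokinase induced by CHOP that dampens ATF4 signalling, had 786.6 in the AID-silenced and 1168.5 in the control clone of pair 2, against 2453.9 and 4976.2 in those of pair 1. Its log2 difference was −1.85 ± 0.37 (SE, n = 2 per pair, limma adjusted p = 0.245), a 3.60-fold lower level, and the pairs did not overlap. Gtpbp2, a GTP-binding protein linked to ribosome rescue, had 867.5 and 1069.2 in the AID-silenced and control clones of pair 2, against 3687.9 and 3610.9 in those of pair 1. This was the largest mean difference among the tested members, −1.90 ± 0.19 (SE, n = 2 per pair, limma adjusted p = 0.200). All 4 probe sets for Gtpbp2 were lower in pair 2, by mean log2 differences of −2.04 to −1.60.

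Stc2, the secreted glycoprotein stanniocalcin 2, had 339.1 in the AID-silenced and 387.7 in the control clone of pair 2, against 1055.8 and 1422.2 in those of pair 1. Its log2 difference was −1.71 ± 0.23 (SE, n = 2 per pair, limma adjusted p = 0.200), and its other probe sets gave −1.61 and −1.06. Nupr1, a small stress-induced nuclear protein, had 89.2 and 91.8 in the AID-silenced and control clones of pair 2, against 204.4 and 451.3 in those of pair 1. The pair 2 clones lay close together and the pair 1 clones apart, with differences of −1.07 in the AID-silenced and −2.12 in the control clones (limma adjusted p = 0.257). Nupr1 stood just inside the 2-fold limit, and it was below that limit in at least 1 group with quantile normalisation, with a pseudocount of 64 and with the mean of its probe sets. Of the 13 probe sets for these 5 genes, all 13 were lower in pair 2 in both groups and 10 were at least 2-fold lower in both. These counts include the 5 brightest probe sets, which were 2-fold lower in both groups by the rule that picked the genes. The dimmer probe sets for Ddit3 and Nupr1, and 1 for Stc2, were not 2-fold lower in both groups.

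**Figure D1:**
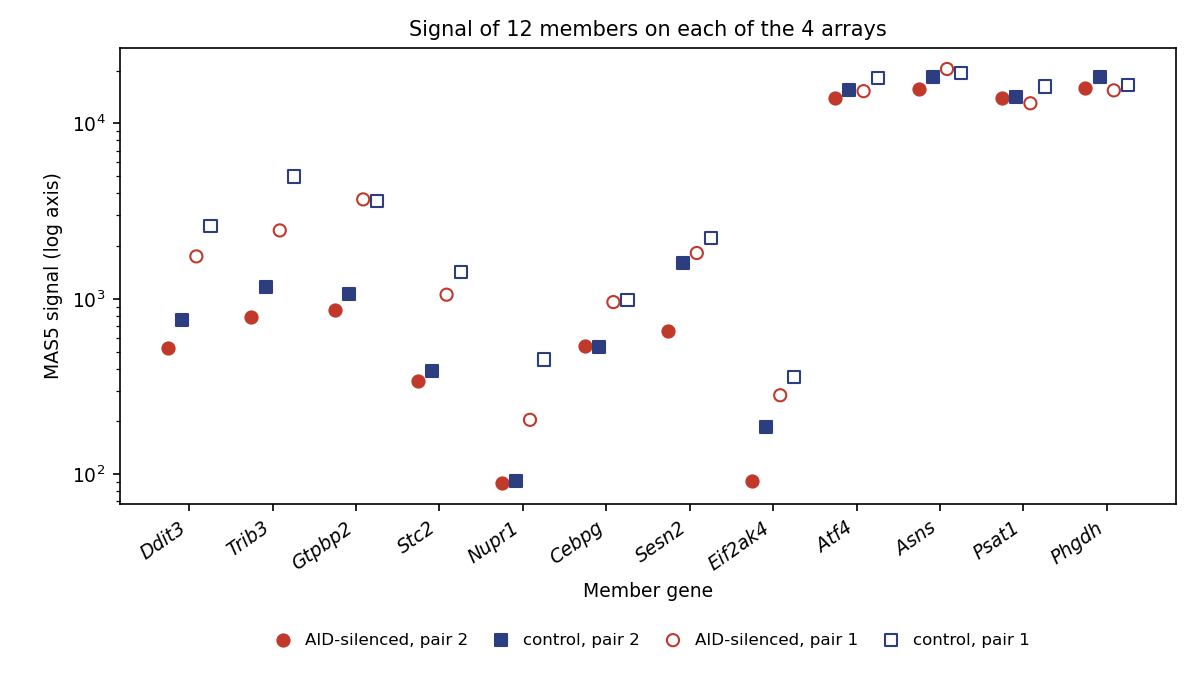
MAS5 signal (log axis) of 12 members in each clone, with filled symbols for pair 2, open symbols for pair 1, circles for AID-silenced and squares for control clones. Each symbol is 1 array. For Ddit3, Trib3, Gtpbp2, Stc2 and Nupr1 all filled symbols lie below all open ones, while for Psat1 and Phgdh the pairs overlap. Signals of different genes come from different probes and are not comparable.

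The 4 members with the next largest mean differences were lower in both groups but not 2-fold lower in both. Eif2ak4, the kinase GCN2, had 91.6 and 186.3 in the AID-silenced and control clones of pair 2, against 282.1 and 359.5 in those of pair 1. It was lower, at −1.47 in the AID-silenced and −0.89 in the control clones, but a dimmer Eif2ak4 probe set gave −0.44 and 0.05. Sesn2, which encodes sestrin 2, a leucine sensor that restrains mTORC1, had 654.4 and 1601.8 in the AID-silenced and control clones of pair 2, against 1824.4 and 2231.2 in those of pair 1. The Sesn2 difference was −1.46 in the AID-silenced and −0.47 in the control clones. Cebpg, a C/EBP partner of ATF4, had 542 in the AID-silenced and 534.5 in the control clone of pair 2, against 958 and 983.4 in those of pair 1. Its difference of −0.83 ± 0.19 (SE, n = 2 per pair, limma adjusted p = 0.246) was nearly the same in both groups, at −0.80 and −0.86. Cth, the last enzyme of cysteine synthesis from methionine, was lower, at −0.58 in the AID-silenced and −1.15 in the control clones.

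The other regulators differed less between the pairs. Atf4 had signals of 13907.7 and 15471.9 in the AID-silenced and control clones of pair 2, against 15262.6 and 18173.1 in those of pair 1. Its values overlapped, a dimmer probe set gave 0.29 in the AID-silenced and −0.90 in the control clones, and the log2 difference was −0.18 ± 0.14 (SE, n = 2 per pair, limma adjusted p = 0.589). Eif2ak3, the kinase PERK, gave 0.01 in the AID-silenced and −0.11 in the control clones, and Cebpb, a C/EBP factor, −0.04 and 0.22. Ppp1r15a (GADD34), the phosphatase subunit that reverses eIF2 phosphorylation, gave −0.61 and −0.24. Atf5, a relative of Atf4, had 2020.4 and 1379.5 in the AID-silenced and control clones of pair 2, against 1855.8 and 2777.6 in those of pair 1, so its groups did not share a direction.

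Among the 9 synthesis members 0 were at least 2-fold apart between pairs. Asns, asparagine synthetase, had 15681.2 and 18322.3 in the AID-silenced and control clones of pair 2, against 20414.5 and 19439.1 in those of pair 1 (log2 difference −0.23 ± 0.12, SE, n = 2 per pair, limma adjusted p = 0.460). Phgdh and Psat1, the entry enzymes of serine synthesis, had mean differences of 0.10 ± 0.13 and −0.05 ± 0.14, and Psph, which completes it, −0.16 ± 0.16 (SE, n = 2 per pair). The mitochondrial folate enzymes gave 0.08 for Shmt2 and −0.14 for Mthfd2, with Aldh1l2 lower at −0.47. Pck2, the mitochondrial phosphoenolpyruvate carboxykinase, was lower, at −0.44 in the AID-silenced and −0.36 in the control clones. Signals such as these reached 20414.5, where the highest signals on the arrays were 40603.5 to 53070.5, and whether differences near the top of the scale were compressed was not tested.

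Transporters went both ways between the pairs. Slc7a1, the cationic amino acid transporter, was higher in pair 2, with 6052.5 and 6765.1 in its AID-silenced and control clones, against 4945.7 and 3837.5 in those of pair 1 (log2 difference 0.55 ± 0.18, SE, n = 2 per pair, limma adjusted p = 0.302). Slc38a2, the neutral amino acid transporter SNAT2, was higher by 0.45 in the AID-silenced and 0.36 in the control clones at its brightest probe set. Dimmer Slc38a2 probe sets went against this, with −0.22 and 0.03 at 1 and −0.70 and −1.15 at another, and their mean with the brightest was −0.21. Slc1a4, a neutral amino acid exchanger, was lower, at −0.66 and −0.43. Slc3a2 and Slc7a5, the heavy and light chains of the leucine transporter, did not keep a sign, with −0.13 and 0.13 for Slc3a2 and −0.25 and 0.49 for Slc7a5 in the AID-silenced and control clones. Of the tRNA synthetases, Wars was lower, at −0.35 in the AID-silenced and −0.51 in the control clones, Aars by −0.11 and −0.38, and Gars by −0.04 and −0.21, while Nars gave 0.34 and −0.18.

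By sign alone, 21 of 34 tested members (61.8%) were lower in pair 2 in both groups, against 38.5% of tested genes, and 3 (8.82%) were higher, against 26.4%. In 14 members (41.2%) both pair 2 clones lay below both pair 1 clones, against 29.3% of genes, and in 2 (5.88%) both lay above, against 19.5%. The median difference was −0.24 over the tested members and −0.07 over all tested genes. By role, the median was −1.34 for the 4 tested stress effectors, −0.80 for the 4 kinases and feedback genes and −0.64 for the 6 tested transcription factors. It was −0.19 for the 4 tRNA synthetases, −0.16 for the 9 synthesis enzymes and close to 0 for the 7 transporters.

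**Figure D2:**
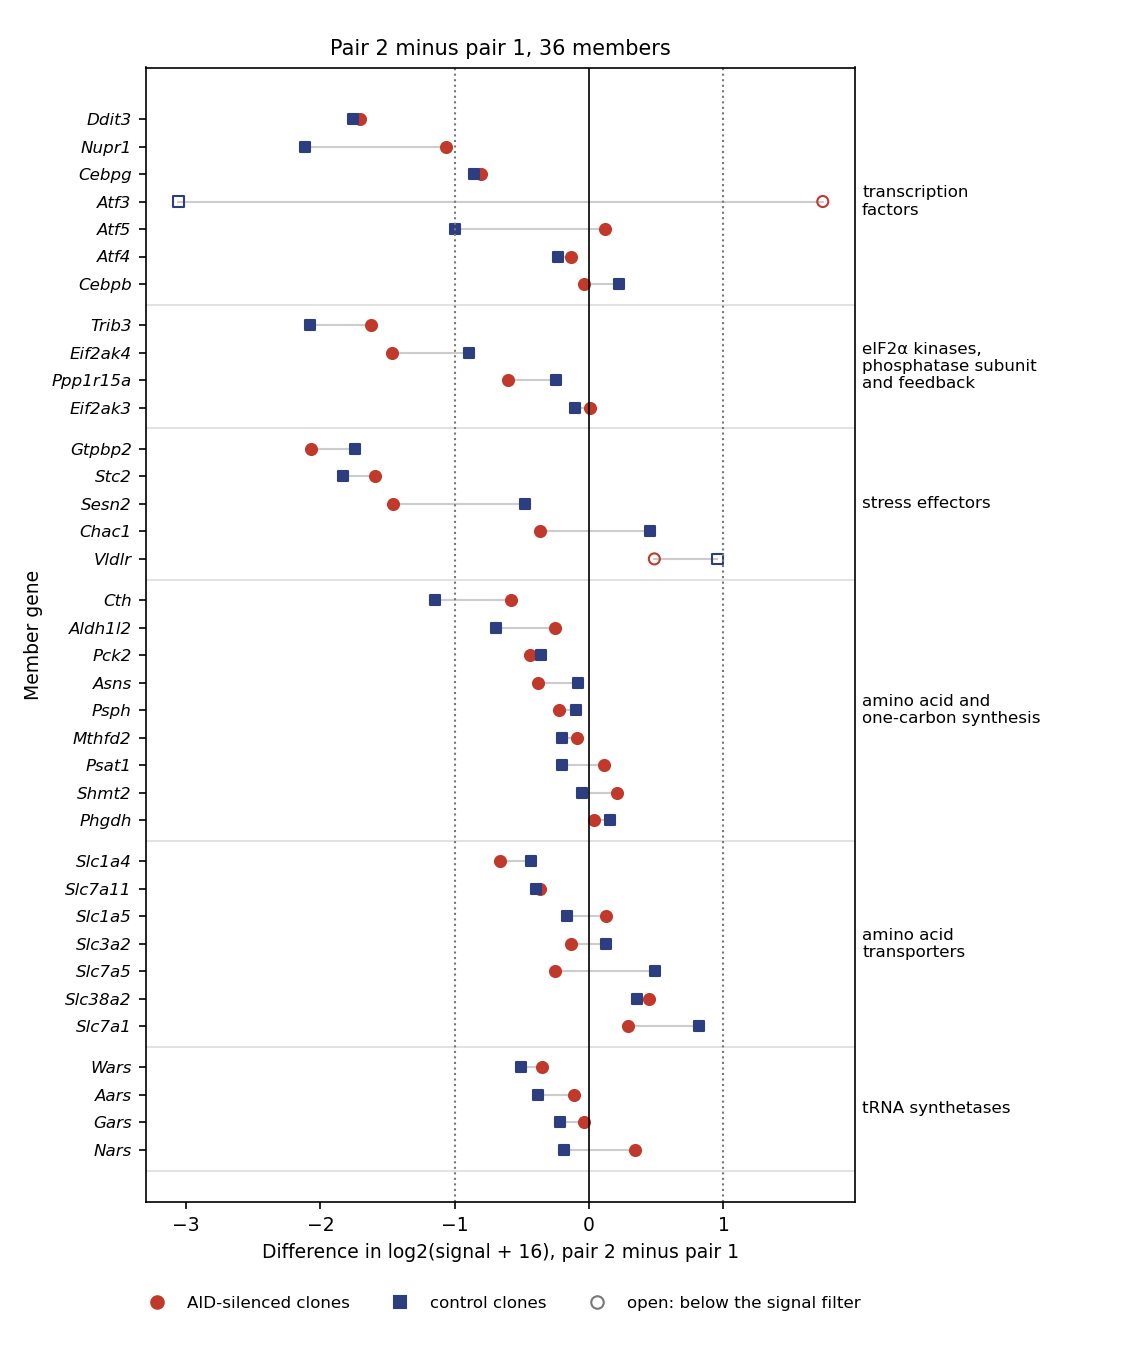
Difference in log2(signal + 16) of pair 2 minus pair 1 for the 36 members by role, in AID-silenced clones (circles) and control clones (squares). Dotted lines mark a 2-fold difference and open symbols members below the signal filter. Ddit3, Nupr1, Trib3, Gtpbp2 and Stc2 lie left of the lower line in both groups, and the synthesis enzymes other than Cth lie between the lines.

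Genes from 8 related lists were set beside the members in the same contrast, and 0 of them passed limma's adjusted threshold. For the counts below, 38.5% of all tested genes were lower in pair 2 in both groups and 26.4% higher. Of 18 tested further ATF4 targets, 11 were lower in pair 2 in both groups and 4 higher, with a median of −0.34. Nfil3, a bZIP repressor, had 323.6 and 166.5 in the AID-silenced and control clones of pair 2, against 831.3 and 1049.2 in those of pair 1. Jdp2, another bZIP factor, had 31.4 and 22.8 in the AID-silenced and control clones of pair 2, against 76.9 and 421.2 in those of pair 1. Both pair 2 signals of Jdp2 lay below the filter at 49.4, and it was bright mainly in the control clone of pair 1. Gpt2, a mitochondrial alanine aminotransferase, had 1002.7 and 809.6 in the clones of pair 2, against 1758 and 2601 in those of pair 1. All these pair 2 values lay below the pair 1 values, but the genes were named for large differences of the same sign in both groups.

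The IRE1 and ATF6 arms of the unfolded protein response, which raise chaperones and folding enzymes, lay mainly on the other side, with 13 of 20 tested genes higher in pair 2 in both groups, 4 lower and a median of 0.38. Sdf2l1, a chaperone cofactor, had 8610.3 and 7581.1 in the AID-silenced and control clones of pair 2, against 3479.2 and 2870.3 in those of pair 1 (log2 difference 1.35 ± 0.17, SE, n = 2 per pair, limma adjusted p = 0.200). Pdia4, a disulfide isomerase, had 10082.4 and 8814.7 in pair 2, against 5033.4 and 4833.8 in pair 1. Ern1, which encodes the sensor IRE1 itself, went the opposite way, with 2721 and 1629.3 in pair 2, against 5928.7 and 5491 in pair 1.

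The remaining lists did not share a direction. Other folate and glycine enzymes were higher in 5 of 8 and lower in 1 (median 0.40). Mthfd1 was higher, at 0.48 in the AID-silenced and 0.60 in the control clones. NRF2 targets, which share Slc7a11 with the ATF4 response, were higher in 6 of 8 and lower in 0 (median 0.40), with Gclm at 0.73 and 1.15. Slc7a11 itself, counted with the members, was lower in pair 2, at −0.37 in the AID-silenced and −0.39 in the control clones. Other cytosolic tRNA synthetases were lower in 9 of 15 and higher in 4 (median −0.11). Eprs gave −0.53 and −0.91, and Rars −0.51 and −0.68. Mitochondrial tRNA synthetases were higher in 4 and lower in 3 of 16 (median close to 0), and genes of translation control by eIF2 higher in 4 and lower in 3 of 12 (median −0.04). Other amino acid transporters were lower in 3 of 9 and higher in 0 (median −0.20), with Slc7a7 at −1.09 and −2.22.

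**Figure D3:**
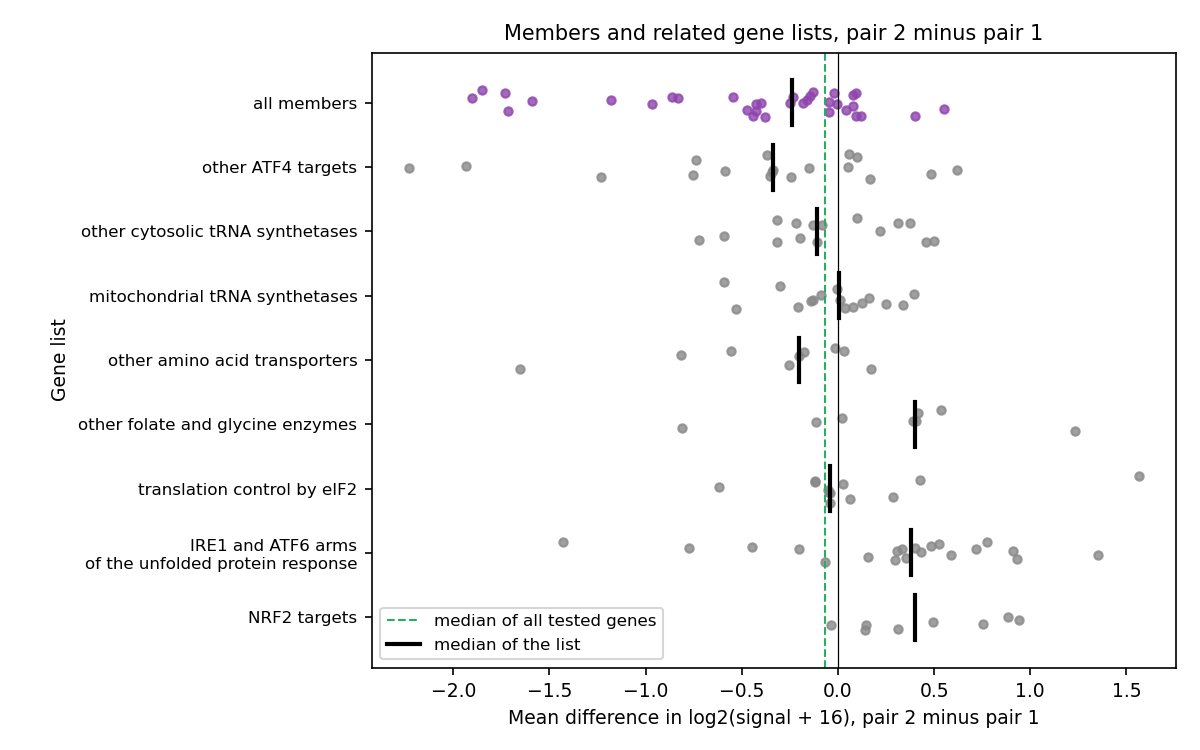
Mean difference in log2(signal + 16) of pair 2 minus pair 1 for the tested members and the tested genes of 8 related lists, 1 point per gene with vertical scatter for visibility. Black bars are list medians and the dashed line the median of all tested genes, −0.07. The member points spread down to −1.90, and most points of the IRE1 and ATF6 list lie right of 0.

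Between AID-silenced and control clones, 0 of the 34 tested members were at least 2-fold lower in both pairs, against 0.449% of tested genes. In the other direction 0 were at least 2-fold higher, against 0.563%. Members lower in both pairs and at least 1.5 times lower on average were Slc7a11, Ppp1r15a, Trib3, Sesn2, Eif2ak4, Chac1 and Cebpb, with mean folds of 1.52 to 1.82. The share of all tested genes that met this second rule was not counted, so it serves only to name members. In Slc7a11, Ppp1r15a, Chac1 and Cebpb the groups did not overlap, and in Trib3, Sesn2 and Eif2ak4 they did. No member passed limma's adjusted threshold. Over all 22518 probe sets 2 passed, 1 higher and 1 lower (0.00444% each), and 787 had an unadjusted p under 0.05. With the pair as a block 8 probe sets passed, 4 in each direction (0.0178% each). Leaving out the AID-silenced clone of pair 1 gave 0 calls, leaving out the pair 1 control gave 146, and leaving out the pair 2 control gave 52. No member was among any of these calls. Epcam, which carries most of the epithelial marker sum, had 4012.4 and 2475.2 in the AID-silenced clones of pairs 1 and 2, against 2327.3 and 1034.9 in the controls, and its part in the results was not tested.

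Slc7a11, the light chain of the cystine and glutamate exchanger, had signals of 555.3 and 426.5 in the AID-silenced clones of pairs 1 and 2, against 1034.8 and 783.6 in the control clones. The groups did not overlap, and the differences of −0.88 in pair 1 and −0.85 in pair 2 were nearly equal. The mean was −0.87 ± 0.29 (SE, n = 2 per group, limma adjusted p = 0.9996). With the pair as a block the SE was 0.22 and the limma adjusted p 0.417. A second, dimmer probe set gave −0.63 and −0.46. Of the NRF2 targets, which include other genes of glutathione supply, several were also lower. Among them was Gclc, the catalytic subunit that starts glutathione synthesis, with 723.5 and 1012.4 in the AID-silenced clones of pairs 1 and 2, against 1183.5 and 2445.2 in the control clones. Gclm, its partner subunit, differed by −0.39 in pair 1 and −0.81 in pair 2, and Hmox1, heme oxygenase 1, by −0.65 and −0.49. In that list 4 of 8 tested genes had the lower level under AID silencing in both pairs and 1 the higher, with a median of −0.48 in pair 1 and 0.0015 in pair 2. Of all tested genes, 27.5% were lower in both pairs and 26.7% higher.

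Ppp1r15a had 1353.6 and 883.1 in the AID-silenced clones of pairs 1 and 2, against 2144.2 and 1807.7 in the control clones (log2 difference −0.84 ± 0.28, SE, n = 2 per group, limma adjusted p = 0.9996). Cebpb had 3537.1 and 3440.9 in the AID-silenced clones, against 4920 and 5751.2 in the control clones, a difference of −0.61 ± 0.20 (SE, n = 2 per group, limma adjusted p = 0.9996). In both genes the groups did not overlap, and the second probe set for Cebpb gave −0.58 in pair 1 and −0.80 in pair 2. Chac1, a glutathione-degrading enzyme and CHOP target, had 4787.3 and 3702.7 in the AID-silenced clones, against 5534.4 and 7591.4 in the control clones. Its difference was −0.21 in pair 1 and −1.03 in pair 2.

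Several members that were lower in pair 2 were also lower under AID silencing within each pair. Ddit3 differed between AID-silenced and control clones by −0.58 in pair 1 and −0.53 in pair 2, and Trib3 by −1.02 and −0.56. The second Ddit3 probe set gave −0.08 and 0.01. Sesn2 gave −0.29 and −1.27, Eif2ak4 −0.33 and −0.91, and Stc2 −0.42 and −0.19. Other probe sets did not keep the sign, with 0.31 and −0.18 at 1 for Eif2ak4 and −0.66 and 0.12 at 1 for Stc2. Gtpbp2 gave 0.03 and −0.30, and its other probe sets did not share a sign, with 0.56 and 1.33 at 1 of them. Nupr1 gave −1.08 and −0.04, and its second probe set did not keep the sign, with −1.20 and 0.54. Atf4 gave −0.25 and −0.15, with a mean of −0.20 ± 0.19 (SE, n = 2 per group, limma adjusted p = 0.9996).

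Among the synthetases, Aars had 7473.6 and 6906.3 in the AID-silenced clones of pairs 1 and 2, against 10970.8 and 8411.7 in the control clones, and Gars differed by −0.43 and −0.25. Slc1a4 was lower, at −0.36 and −0.59, and Slc38a2 at −0.38 and −0.30. Among the enzymes Asns gave 0.07 in pair 1 and −0.22 in pair 2, Phgdh −0.10 and −0.22, and Shmt2 −0.17 and 0.08. Eif2ak3 was higher in both AID-silenced clones at its brightest probe set, by 0.17 and 0.29. Dimmer Eif2ak3 probe sets gave −0.43 and −0.21 at 1 and 0.42 and −0.05 at another.

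By sign, 20 of 34 tested members (58.8%) were below the control in each pair, against 27.5% of tested genes, and 1 (2.94%) was higher, against 26.7%. The groups did not overlap with AID-silenced lower in 11 members (32.4%), against 14.4% of genes, and higher in 1 (2.94%), against 14.3%. The median difference was −0.18 over the tested members, −0.25 in pair 1 and −0.20 in pair 2, with −0.0048 over all tested genes. The kinases and feedback genes had a median of −0.71, the stress effectors −0.46, the transcription factors −0.38, the tRNA synthetases −0.19, the synthesis enzymes −0.08 and the transporters 0.02. In the further ATF4 targets 8 of 18 were lower in both pairs and 1 was higher. That gene was Cbs, the first enzyme of cysteine synthesis from homocysteine, with 141.8 and 169.3 in the AID-silenced clones of pairs 1 and 2, against 27.2 and 71 in the control clones. The pair 1 control signal of Cbs lay below the filter at 49.4, where the size of a difference depends on the pseudocount. Of the IRE1 and ATF6 arms 7 of 20 were higher in both pairs and 1 lower, with a median of 0.13. Among the other transporters, Slc16a10, an aromatic amino acid carrier, gave −0.54 and −1.72, and Slc7a8, a neutral amino acid exchanger, 0.51 and 1.22. Eif2ak2, the RNA-activated eIF2 kinase PKR, gave 0.87 and 0.75.

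**Figure D4:**
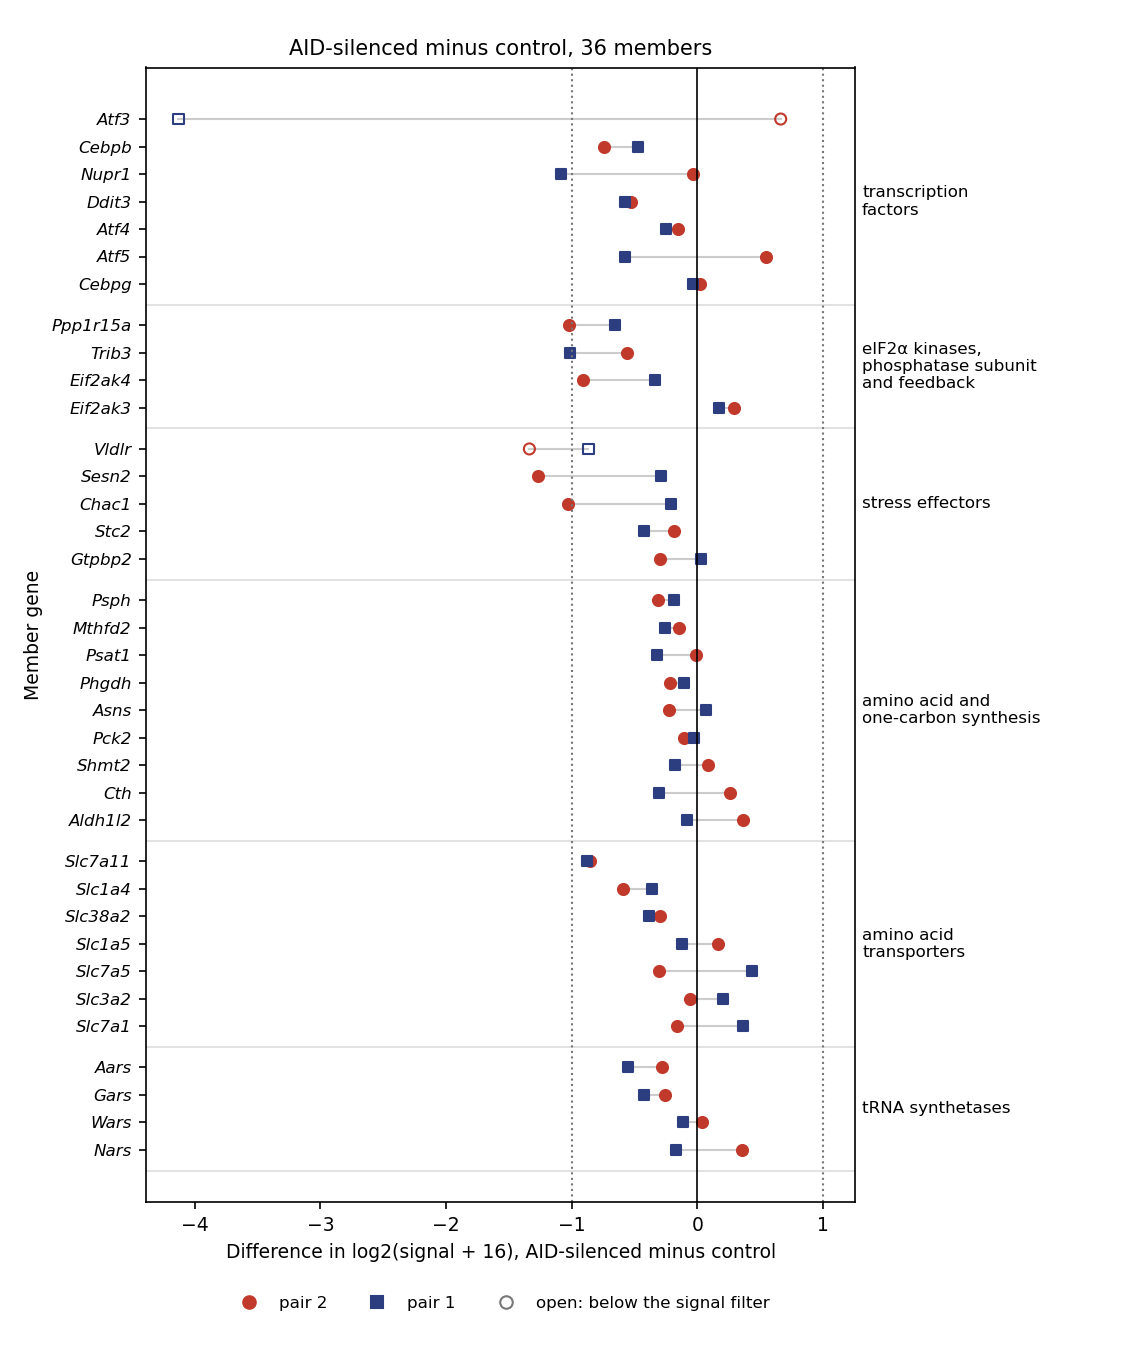
Difference in log2(signal + 16) of AID-silenced minus control for the 36 members by role, in pair 2 (circles) and pair 1 (squares). Dotted lines mark a 2-fold difference and open symbols members below the signal filter. No tested member lies beyond a dotted line in both pairs, and both symbols for Slc7a11, Ppp1r15a and Cebpb lie left of 0.

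The 2 members below the signal filter were Atf3 and Vldlr. Atf3, a stress-induced bZIP factor, had 2.9 and 47.1 in the AID-silenced clones of pairs 1 and 2, against 315.1 and 23.8 in the control clones. It was bright only in the control clone of pair 1, and its mean signal of 47.0 lay just under the filter at 49.4. Vldlr, a lipoprotein receptor, stayed between 4 and 54.7 on all arrays. At such signals the size of a difference depends on the pseudocount.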

How the data were processed

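Each array was deposited as 1 linear intensity per probe set. The submitters' processing notes name MAS5, which summarises perfect-match and mismatch probes, and a 2% trimmed mean of 500 was found on all arrays. Values were analysed as log2(signal + 16), which understates the differences of dim genes. Of 45101 probe sets, 64 controls were left out, and the 22518 above the median by mean log2 value were tested (mean signal about 49.4). The platform annotation gave 34945 probe sets 1 symbol, 932 several and 9160 none, and only the first were named. Gene IDs of 34741 matched a GRCm38.p6 gene table. Of 126 genes in 8 related lists, 10 were not matched and 3 were matched through another symbol.

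Groups were fitted in limma 3.58.1 (R 4.3.3, statmod 1.5.0) with lmFit and a trended, robust eBayes step, and p-values were adjusted by Benjamini-Hochberg over all tested probe sets. This step was tested on simulated data, where it missed many planted changes, so a member that missed the threshold is not shown to be unchanged. The main fits held silencing alone or pair alone, so each left the other factor in the spread behind its SE and p-value. The numbers were taken as pairs because the titles call them so, but what the clones of a pair share is not stated. Pair 2 minus pair 1 in AID-silenced clones correlated with the same difference in control clones (r = 0.306 across 22518 probe sets, which are not independent). Alternatives were the pair or the silencing group as a block, other scalings (quantile or median), a pseudocount of 1 or 64, no filter or a stricter one, an untrended prior, the mean of a gene's probe sets, and each clone left out.

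Every member could be named, and of each other list up to 4 tested genes with the largest mean difference in either comparison among those of 1 sign in both pairs or groups. The members and lists were chosen with earlier results of these data known. The number of arrays limits the precision. The level of the silenced gene is not reported here. Promoters were matched to RefSeq by symbol for 30 of 36 members. Figures were drawn with matplotlib 3.10.9.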

Additional observations from a re-analysis of the deposited data

Results flagged for a closer look

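Atf3 and Atf5 differed between AID-silenced and control clones in opposite directions in the pairs, by at least 0.5 log2 units in each. For Atf3 the AID-silenced minus control difference was −4.13 in pair 1 and 0.66 in pair 2, so that pair 1 minus pair 2 came to −4.80. The same 4 signals give pair 2 minus pair 1 as 1.74 in the AID-silenced and −3.06 in the control clones, a gap of 4.80. For Atf5 the corresponding values were −0.58 and 0.55, which lie −1.12 apart. With 1 clone of each kind in a pair, these differences between pairs were not tested, and the signals of Atf3 lay mostly below the filter.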

How the results depend on the processing

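No member passed limma's adjusted threshold in either comparison in any alternative run, and the lowest adjusted p of a member was 0.0633, for Gtpbp2 between the pairs without the AID-silenced clone of pair 2. Probe sets past the threshold between AID-silenced and control clones numbered 2, 8 with the replicate block, 0 with the untrended prior, and 0 to 146 with 1 clone left out. Between the pairs they numbered 0, 4 with the silencing group as a block, and 0 to 59 with 1 clone left out. With a clone left out, the lone clone of its group is assumed to vary like the others. The cause of these changes was not tested. The 5 members at least 2-fold lower in pair 2 became 4 with quantile normalisation, a pseudocount of 64, the stricter filter and the mean of probe sets, each time without Nupr1, which the stricter filter did not test. With 1 clone left out 1 difference has to pass in place of 2, and the counts were 7 members between the pairs, and 2 to 3 between AID-silenced and control clones, against 0 with all clones. The member median between the pairs, −0.24, was −0.38 with quantile normalisation, −0.21 with median scaling, −0.21 with the stricter filter and −0.25 to −0.24 with 1 clone left out. Between AID-silenced and control clones it was −0.18, −0.23 with the mean of probe sets and −0.25 to −0.20 with 1 clone left out. None of the 5 members at least 2-fold lower in pair 2 changed sign, but smaller differences did. With all clones kept, 9 of 34 members changed sign between the pairs under at least 1 alternative, such as Slc38a2 at −0.21 with the mean of probe sets and Phgdh at −0.08 and Shmt2 at −0.10 with quantile normalisation. Between AID-silenced and control clones 3 of 34 did, such as Gtpbp2 at 0.14 with the mean of probe sets. With 1 clone left out, 10 of 34 changed sign between the pairs and 13 of 34 between AID-silenced and control clones. The replicate block changed no member's call.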
